A study of Mus musculus with 12 samples.

Results

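The chromatin of *Csf1r*, of its ligand gene *Csf1* and of the receptor genes *Csf2ra*, *Csf2rb* and *Csf3r* was examined in microglia of WT and *Cx3cr1*-deficient (KO) mice. Members were the peaks whose Gene Name in the deposited tables is 1 of these 5 genes, which gave 41 of 82568 peaks. They comprised 20 of 26706 peaks for Rpb2, a subunit of RNA polymerase II, and 21 of 55862 peaks for H3K27ac, an acetylated histone found at active promoters and enhancers. Both were measured by ChIP-seq, in which DNA recovered with an antibody is sequenced and reads gather where the target sat. Microglia were sorted as CD11b+CD45lo cells from 2-mo-old C57BL/6J littermates that carried either no *Cx3cr1*-eGFP allele (WT) or eGFP in place of *Cx3cr1* on both alleles (Cx3cr1eGFP/eGFP, KO). The allele is constitutive, so *Cx3cr1* was absent from every cell of the KO animals and their microglia carried eGFP, which those of the WT animals did not. Each library came from a pool of 3 mice of 1 sex, and each genotype had a pool labelled female and another labelled male, which gives 2 pools against 2 for each mark. The 4 input libraries were not used here.

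Receptors for colony-stimulating factors tell myeloid cells to survive, divide and mature. *Csf1r* is the receptor tyrosine kinase for CSF1 and IL-34, and microglia are lost when its signal is blocked. Its second intron holds the fms-intronic regulatory element, a conserved enhancer on which microglial *Csf1r* depends. *Csf2ra* encodes the ligand-specific chain of the GM-CSF receptor, *Csf2rb* the common beta chain that it shares with the receptors for IL-3 and IL-5, and *Csf3r* the receptor for G-CSF, best known from neutrophils.

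Depth ran from 10395804 to 44332626 reads per library, and the deepest was the Rpb2 library of the KO female pool. Values below are CPM, the reads of a peak per 1000000 reads in peaks, after TMM scaling, which sets the bulk of the peaks equal between libraries. In each mark 1 library stood apart. Only 15.9% of the reads of the H3K27ac library of the WT female pool lay in peaks, against 61.1% to 65.3% in the other 3, so H3K27ac log2 fold changes are also given without it. The Rpb2 library labelled WT female held 136 reads in peaks of Y-linked genes, beside 214 and 266 in the libraries labelled male and 0 in the KO female library. It goes against its label, is named by that label throughout, and no order of the sexes in Rpb2 can be read with it. Both WT libraries of Rpb2 thus held Y-linked reads, and of the KO libraries only the male one did. The genotypes may then differ in sex as well, and in Rpb2 these cannot be fully told apart. In bulk pools, fewer cells of a type and less signal per cell cannot be told apart. All 10 microglial marker genes had peaks for both marks, with a summed Rpb2 level of 11228 to 11819 CPM. None of 12 neutrophil and monocyte markers, 6 lymphocyte markers, 3 neuronal markers or 3 astrocyte markers had an Rpb2 peak. Of 6 markers of border macrophages, 1 had an Rpb2 peak, at 26.5 to 53.6 CPM, and 1 of 3 oligodendrocyte and 2 of 3 endothelial markers did, at sums of 103 to 158 and 50.9 to 86.2 CPM. For H3K27ac, the summed levels were 51.9 to 84.5 CPM for 7 of the 12 neutrophil and monocyte markers, 125 to 182 for 5 border macrophage markers and 18.4 to 26.6 for 2 lymphocyte markers. The sums were 17.8 to 56.7 CPM for 3 neuronal markers and 0 to 13.8 for 2 astrocyte markers. They were 294 to 363 for 3 oligodendrocyte and 190 to 260 for 3 endothelial markers, against 4777 to 8379 for 10 microglial markers. Per marker gene with peaks, the means were 112 CPM for oligodendrocytes, 77 for endothelium and 31.9 for border macrophages, against 654 for microglia. The microglial list includes *Cx3cr1*, which is disrupted in KO.

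No peak of the 5 genes differed between KO and WT microglia past an adjusted p of 0.05 in edgeR's quasi-likelihood test. Of all Rpb2 peaks 0.00749% were called, and of all H3K27ac peaks 0.0233%. At an unadjusted p under 0.05 there was 1 of the 20 Rpb2 peaks, beside 12.2% of all, and 0 of the 21 H3K27ac peaks, beside 4.95%. DESeq2 also called 0 of each, where it called 3.83% of all Rpb2 peaks and 0.231% of all H3K27ac peaks. The genotypes did not overlap in CPM at 10 of the 20 Rpb2 peaks, 5 higher and 5 lower in KO, where 47.4% of all Rpb2 peaks do not overlap. For H3K27ac this held for 6 of 21 peaks, 5 of them higher in KO, beside 27.4% of all. The median log2 fold change, KO over WT, was -0.11 over the Rpb2 members and 0.09 over the H3K27ac members, beside 0.04 and -0.21 over all peaks. Peaks of the KO list alone had a median of 0.42 over 10 Rpb2 members, and those of both lists -0.11 over 8, while the 14148 and 8893 such peaks of the whole table had medians of 0.51 and -0.17. Of the WT list alone there were 2 Rpb2 members, at -0.46 and -0.25, and 3665 peaks in all, at a median of -0.89. The 13 H3K27ac members of both lists had a median of 0.09. Those of the KO list alone were at 0.14 (5 peaks) and of the WT list alone at -1.55 (3 peaks). Over all H3K27ac peaks these medians were 0.04, 0.52 and -6.78. The last covers 18524 peaks, which enter the -0.21 over all peaks. A peak of 1 list passed peak calling through that genotype alone, which favours higher values there. A difference in that direction is then no finding, and such peaks are named as they come. Without the library labelled WT female, 8.28% of all Rpb2 peaks and 2.59% of Rpb2 gene sums were called, and without the WT male library 7.35% and 1.52%. For H3K27ac these shares were 1.53% and 3.65% in the first case and 14.8% and 22.5% in the second, and calls of members with a library left out are to be read beside them. With 2 pools a side a missed threshold does not show equality, and the 95% intervals given with each value bound the difference.

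Summed over the peaks that bear its name, *Csf1r* held 674 and 518 CPM of Rpb2 in the WT pools, labelled female first and male second here and below. The KO pools held 558 and 683. The 2 genotypes overlapped, and their means were 596 ± 111 and 621 ± 88.7 CPM (SD, n = 2 pools). The log2 fold change was 0.06, with a 95% interval from -0.24 to 0.35 (adjusted p = 0.926, edgeR). A 2-fold difference in either direction lies outside that interval. Over its Rpb2 peaks of both lists alone the log2 fold change was 0.22 (adjusted p = 0.7, edgeR). For H3K27ac the sums were 128 and 235 CPM in WT pools against 206 and 187 in KO pools. The log2 fold change of H3K27ac was 0.11 (-0.51 to 0.73, adjusted p = 0.999, edgeR), and the low value is the library with few reads in peaks. Without that library it was -0.26 (adjusted p = 0.265, edgeR), and without the WT male library instead it was 0.62 (adjusted p = 0.000146) in a fit that called 22.5% of all genes. Its sign and its side of the threshold depended on which WT pool was used.

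Gene names in the tables go to the nearest TSS, and this divides *Csf1r*. A microRNA gene, *Mir6983*, lies inside *Csf1r*, and 18 more Rpb2 peaks and 2 more H3K27ac peaks with centres inside the *Csf1r* record carry its name. They are not members by the rule but lie in the same transcription unit (chr18:61100598-61132149 in mm10, plus strand). Counted by name or position, *Csf1r* had 24 Rpb2 peaks, 22 with centres inside the record and 2 named peaks upstream, with 2040 and 1909 CPM in WT pools against 1977 and 2074 in KO pools. These 4 sums stayed close together, and the log2 fold change was 0.04 (-0.12 to 0.20, adjusted p = 0.909, edgeR), the narrowest interval of any gene here. Peaks of 1 list alone enter this sum, and each such list favours its own genotype. The H3K27ac sum counted the same way was 673 and 870 CPM in WT pools against 823 and 852 in KO pools, a log2 fold change of 0.12 (-0.60 to 0.83, adjusted p = 0.999). Without the WT female library it was -0.05 (adjusted p = 0.746) and without the WT male library 0.31 (adjusted p = 3.77e-05, where 22.5% of genes were called). Of the 18 further Rpb2 peaks 8 were higher and 10 lower in KO, from -1.24 to 0.86 on the log2 scale, and none was called (lowest adjusted p = 0.289, edgeR). All 5 from the WT list alone were lower, 6 of the 7 from the KO list alone were higher, and the 6 of both lists ran from -0.55 to 0.40. Mean levels in those 18 ran from 37.6 to 121 CPM.

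**Figure D1:**
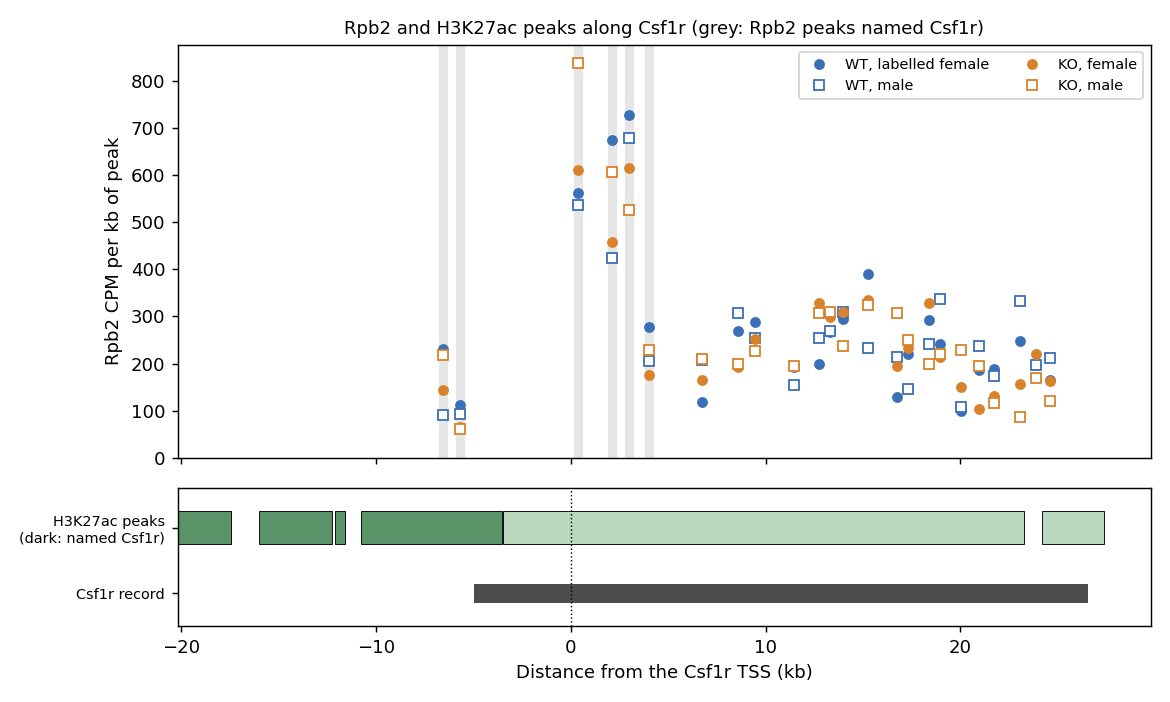
Rpb2 CPM per kb of peak in each of the 4 pools along Csf1r (upper panel, linear axis from 0; filled circles are pools labelled female, open squares male) above bars for the H3K27ac peaks and the gene record, with distance from the TSS in kb on the horizontal axis. Grey columns and dark bars are the peaks named Csf1r. The promoter peak and the first 2 intron 2 peaks stand at 424 to 836 CPM per kb in all pools, above every other Rpb2 peak of the gene.

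The promoter peak of *Csf1r*, 359 bp past the TSS and in the 5′ UTR (chr18:61105799-61106063), held 149 and 142 CPM of Rpb2 in the WT pools and 162 and 222 in the KO pools. Both KO pools were higher than both WT pools, by little in the female pair. The log2 fold change was 0.39 (-0.12 to 0.91, adjusted p = 0.523, edgeR). Per kb of peak this was 550 CPM in WT and 724 in KO, above 98.1% of all Rpb2 peaks.

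Intron 2 held 3 Rpb2 peaks, all inside a broad H3K27ac domain. Which of them overlaps the known intronic enhancer was not mapped here. The first, 2098 bp past the TSS (chr18:61107523-61107817), held 199 and 125 CPM in WT pools against 135 and 179 in KO pools, so the genotypes overlapped. Its log2 fold change was -0.04 (-0.63 to 0.55, adjusted p = 0.963, edgeR). The second, at 2975 bp (chr18:61108427-61108668), held 176 and 164 CPM in WT pools against 149 and 127 in KO pools. Here both KO pools were below both WT pools, with a log2 fold change of -0.30 (-0.80 to 0.20, adjusted p = 0.623). Per kb these 2 intronic peaks held 549 and 702 CPM in WT, where the promoter held 550, and 533 and 570 CPM in KO, where the promoter held 724. The third, at 4026 bp (chr18:61109459-61109738) and from the WT list alone, was weaker, with 77.8 and 57.3 CPM in WT pools against 49.5 and 64.0 in KO pools and a log2 fold change of -0.25 (-1.01 to 0.50, adjusted p = 0.798).

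Reads within 1 library can be compared without scaling between libraries. The reads of the 3 intron 2 peaks divided by those of the promoter peak gave 3.03 for the pool labelled WT female, 2.44 for the WT male pool, 2.06 for the KO female pool and 1.67 for the KO male pool. Both KO ratios were below both WT ratios, with means of 1.86 ± 0.276 in KO and 2.73 ± 0.417 in WT (SD, n = 2 pools). With only the 2 intron 2 peaks of both lists the ratios, in the same order, were 2.51, 2.03, 1.75 and 1.38. The exact permutation test gave a two-sided p of 0.333, the smallest that 2 pools against 2 allow, and this ratio was formed after the values had been seen. The promoter peak took 7.18% and 7.21% of the *Csf1r* reads in WT and 8.36% and 11% in KO. In that order the Wilson 95% intervals, which cover counting error only, were 6.26% to 8.22%, 6.34% to 8.19%, 7.85% to 8.90% and 10.2% to 11.9%. Intron 2 took 21.8% and 17.6% in WT and 17.2% and 18.5% in KO, which overlapped, and 66.9% to 72.9% lay in the rest of the gene.

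**Figure D2:**
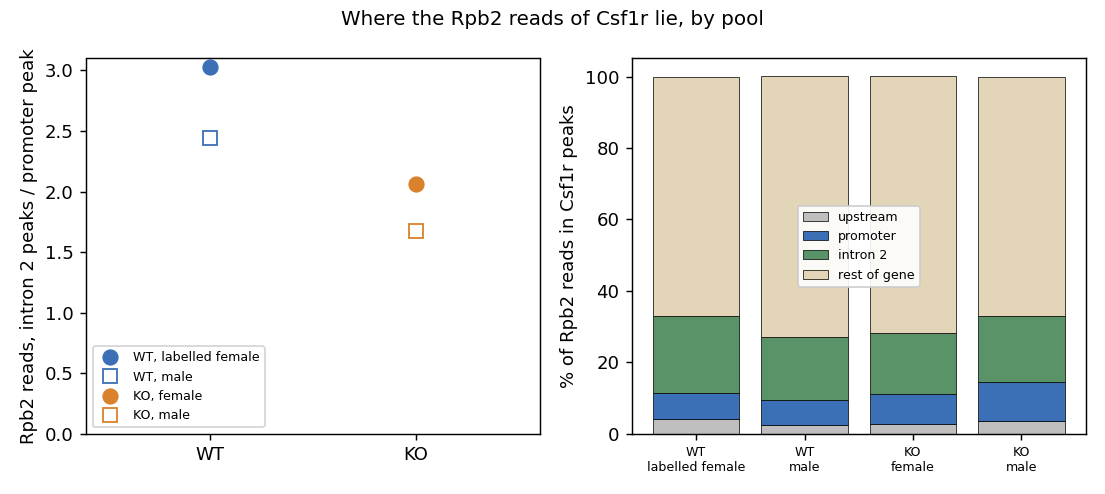
Left, the ratio of Rpb2 reads in the 3 intron 2 peaks to those in the promoter peak of Csf1r, 1 point per pool (linear axis from 0). Right, the percentage of each pool's Rpb2 reads in Csf1r peaks that lay upstream, at the promoter, in intron 2 and in the rest of the gene. The ratio is 2.44 and 3.03 in WT pools against 1.67 and 2.06 in KO pools, and the rest of the gene takes 66.9% to 72.9% in every pool. The ratio of the rest of the gene to the promoter peak, not drawn, is also lower in both KO pools.

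Upstream of *Csf1r*, 2 weaker Rpb2 peaks of the KO list alone lay at -6541 and -5672 bp from the TSS, which is -1567 and -698 bp from the first base of the GENCODE record. The farther one held 56.8 and 22.4 CPM in WT pools against 35.3 and 53.4 in KO pools, with a log2 fold change of 0.17 (-0.90 to 1.24, adjusted p = 0.916, edgeR). The nearer one held 28.8 and 23.7 CPM in WT pools against 16.7 and 15.6 in KO pools. Its KO pools were below its WT pools, at a log2 fold change of -0.69 (-1.91 to 0.53, adjusted p = 0.640, edgeR). Both lay inside the largest H3K27ac peak named *Csf1r*, which is 7259 bp wide (chr18:61094789-61102047). That peak held 96.9 and 195 CPM in WT pools against 159 and 150 in KO pools, a log2 fold change of 0.08 (-0.52 to 0.67, adjusted p = 1, edgeR). Without the WT female library the log2 fold change of that H3K27ac peak was -0.34 (adjusted p = 0.188), and without the WT male library 0.67 (adjusted p = 0.000861, where 14.8% of all peaks were called).

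Over the gene itself acetylation formed 1 domain of 26759 bp from -3502 to 23256 bp around the TSS (chr18:61102070-61128828), named *Mir6983* in the table. Its H3K27ac level was 540 and 582 CPM in WT pools against 592 and 614 in KO pools. The 4 pools differed little and both KO pools were higher, with a log2 fold change of 0.10 (-0.62 to 0.82, adjusted p = 1, edgeR), or 0.05 without the WT female library (adjusted p = 0.840). Per kb it lay above 97.3% of all H3K27ac peaks. At the 3′ end a peak of 3211 bp, of the KO list alone, held 30.5 and 28.9 CPM in WT pools against 26.7 and 45.4 in KO pools (log2 fold change 0.28, 0.31 without the WT female library). Its interval in all 4 libraries was -0.35 to 0.91. This peak also covers the end of *Hmgxb3*, a gene on the opposite strand, and runs past the *Csf1r* record. Its reads enter the *Csf1r* sum by position but cannot be assigned to *Csf1r* alone. A further 3 and weaker H3K27ac peaks lay farther upstream. The one at -14139 bp held 23.2 and 27.7 CPM in WT pools against 33.2 and 29.9 in KO pools, with a log2 fold change of 0.31 (-0.35 to 0.96, adjusted p = 0.914), or 0.18 without the WT female library. The one at -18803 bp, of the KO list alone, held 6.50 and 3.36 CPM in WT pools against 12.9 and 4.09 in KO pools, a log2 fold change of 0.80 (-0.85 to 2.45, adjusted p = 0.907), or 1.33 without it. The one at -11836 bp held 27 and 0 reads in WT pools against 18 and 15 in KO pools. It was called from the WT list only, and its interval, -7.03 to 3.93, leaves the direction unknown. In the WT male library this allows up to 3 reads, for counting error only.

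*Csf2rb*, the common beta chain, had the next highest promoter. Its only Rpb2 peak lay 106 bp past the TSS in the 5′ UTR (chr15:78325962-78326230) and held 109 and 131 CPM in WT pools against 149 and 109 in KO pools. The genotypes overlapped, with a log2 fold change of 0.11 (-0.47 to 0.68, adjusted p = 0.897, edgeR). The promoter H3K27ac peak held 34.2 and 57.4 CPM in WT pools against 49.9 and 49.6 in KO pools, where the library with few reads in peaks was again the lowest (log2 fold change 0.11, -0.47 to 0.69, adjusted p = 1). Without that library the log2 fold change was -0.21 (adjusted p = 0.723). The 3 other H3K27ac peaks named *Csf2rb* held 5 to 161 reads, with log2 fold changes of -0.25 to 0.14, or -0.98 to -0.38 without the WT female library and 0.49 to 1.33 without the WT male library. Summed over its peaks, the log2 fold change of *Csf2rb* was 0.18 for Rpb2 (-0.35 to 0.72, adjusted p = 0.843) and 0.02 for H3K27ac (-0.60 to 0.64, adjusted p = 0.999), or -0.41 without the WT female library (adjusted p = 0.311) and 0.66 without the WT male library (adjusted p = 0.0401, where 22.5% of genes were called). A further peak of each mark inside the *Csf2rb* record was named for the microRNA gene *Mir7676-1*, with Rpb2 at 9.27 to 15.1 CPM and, in a peak of the WT list alone, H3K27ac reads of 17 and 7 in WT pools against 0 and 0 in KO pools. The neighbouring gene *Csf2rb2* is a close paralog, so reads from stretches the 2 genes share could be missing from uniquely mapped counts. *Csf2rb2* held 85.4 and 66.9 CPM of Rpb2 in WT pools against 88.2 and 87.5 in KO pools (log2 fold change 0.21, -0.44 to 0.85).

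The windows before the TSS of 3 members are shown in the following paragraphs because an Rpb2 peak covered or followed each of them. RefSeq promoter sequences in GRCm38.p6 were matched by symbol for 3 of the 5 genes, *Csf3r*, *Csf2ra* and *Csf1*. *Csf1r* and *Csf2rb* were not matched. The 250 bases before each TSS were searched on both strands for GAGGAA, the core of sites of the myeloid factor PU.1, GGGCGG, the GC box, TGACGTCA, the cyclic AMP response element, and TGANTCA, the AP-1 site. Of 27025 promoters these were found in 23.1%, 32.9%, 1.62% and 6.87%. Capitals mark a match on either strand, and a match is a description of letters and not a site of binding.

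*Csf3r*, the G-CSF receptor, had 7 Rpb2 peaks from before its TSS to its intron 8. Its promoter carries 1 GAGGAA, 86 bases before the TSS (chr4:126024409-126024658, plus strand), and 60% of its bases are G or C.
Csf3r: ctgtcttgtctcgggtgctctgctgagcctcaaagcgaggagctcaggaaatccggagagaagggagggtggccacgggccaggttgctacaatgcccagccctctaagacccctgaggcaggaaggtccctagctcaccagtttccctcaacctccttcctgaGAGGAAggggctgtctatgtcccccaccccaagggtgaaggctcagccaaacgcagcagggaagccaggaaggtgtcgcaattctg
The Rpb2 peak over this TSS (chr4:126024505-126024853) held 70.0 and 54.0 CPM in WT pools against 66.2 and 78.4 in KO pools. The WT and KO pools overlapped, and the log2 fold change was 0.22 (-0.49 to 0.93, adjusted p = 0.814, edgeR). The 6 other Rpb2 peaks named *Csf3r* held 9 to 161 reads, from -0.99 to 1.36 on the log2 scale, with a lowest adjusted p of 0.475, or -0.67 to 1.35 without the library labelled WT female. All of them but the one at 7088 bp came from the KO list alone. Among them the intron 3 peak 4607 bp past the TSS held 7 and 7.90 CPM in WT pools against 14.2 and 24.6 in KO pools, the highest log2 fold change of the 6 (-0.22 to 2.95), and was chosen after its values were seen. It came from the KO list alone, in which it is high. Another 6 Rpb2 peaks inside *Csf3r*, each from 1 list alone, were named for the next gene, *Mrps15*, and none was called (lowest adjusted p = 0.349). By name or position the Rpb2 sum of *Csf3r* was 336 and 256 CPM in WT pools against 309 and 311 in KO pools, a log2 fold change of 0.07 (-0.29 to 0.43, adjusted p = 0.925). By name it was 0.04 (-0.43 to 0.51, adjusted p = 0.978), and over named peaks of both lists alone 0.18 (adjusted p = 0.904).

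Acetylation of *Csf3r* formed a domain of 12208 bp from before the TSS into the gene (chr4:126022152-126034359). It held 164 and 238 CPM of H3K27ac in WT pools against 238 and 253 in KO pools, a log2 fold change of 0.29 (-0.33 to 0.91, adjusted p = 0.916, edgeR). The value that set WT apart was the library with few reads in peaks, and without it the log2 fold change was 0.04 (adjusted p = 0.9). Without the WT male library it was 0.58 (adjusted p = 0.00032), where 14.8% of all peaks were called. The summed H3K27ac of *Csf3r* went from 0.23 with all libraries (-0.39 to 0.84, adjusted p = 0.986) to -0.04 and 0.56 in the same 2 steps (adjusted p = 0.896 and 7.2e-06, where 3.65% and 22.5% of all genes were called). The other 2 H3K27ac peaks of *Csf3r* held 40 to 808 reads at log2 fold changes of -0.49 and 0.17, or -0.86 and 0.11 without the WT female library. None of the 12 neutrophil and monocyte markers had an Rpb2 peak in these libraries, and their part in the H3K27ac of *Csf3r* was not tested.

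*Csf2ra*, the GM-CSF receptor chain, had little Rpb2 at its TSS and more beside it. Its promoter (chr19:61228419-61228668, minus strand) holds 2 GAGGAA in a row next to the TSS, 1 GC box and 1 cyclic AMP response element, which 1.62% of promoters have.
Csf2ra: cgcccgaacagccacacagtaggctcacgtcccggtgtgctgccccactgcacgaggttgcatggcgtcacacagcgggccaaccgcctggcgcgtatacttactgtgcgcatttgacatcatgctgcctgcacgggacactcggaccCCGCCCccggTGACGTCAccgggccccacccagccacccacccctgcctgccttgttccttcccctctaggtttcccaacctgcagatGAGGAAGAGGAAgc
The peak over the TSS (chr19:61228226-61228499) held 12.4 and 5.27 CPM of Rpb2 in WT pools against 14.7 and 17.9 in KO pools, from 16 and 8 reads in WT pools against 81 and 46 in KO pools. The 2 KO values were the higher ones and the log2 fold change was 0.89 (-0.77 to 2.55, adjusted p = 0.664, edgeR). In intron 1, 724 bp past the TSS (chr19:61227592-61227797), a stronger peak held 69.2 and 52.7 CPM in WT pools against 44.2 and 44.5 in KO pools. Here the KO values were the lower ones, at a log2 fold change of -0.46 (-1.25 to 0.33, adjusted p = 0.633). The TSS peak came from the KO list alone and the intron 1 peak from the WT list alone, so each passed peak calling through the genotype in which it was higher, and their opposite directions are not read as a contrast. Per kb the intron 1 peak held 296 CPM in WT and 215 in KO, against 32.3 and 59.6 at the TSS. The H3K27ac peak that spans both held 67.2 and 74.8 CPM in WT pools against 81.8 and 61.4 in KO pools (log2 fold change 0.01, -0.56 to 0.58, adjusted p = 1; -0.07 without the WT female library).

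A peak upstream of *Csf2ra*, at -38173 bp, had the highest mean Rpb2 of its peaks, 84.6 CPM in WT and 76.2 in KO. It lies between genes, and the 250 bases at its centre (chr19:61266466-61266715, given on the plus strand) hold 19 CpG, where the median Rpb2 peak has 6, and none of the 4 motifs.
Csf2ra upstream peak: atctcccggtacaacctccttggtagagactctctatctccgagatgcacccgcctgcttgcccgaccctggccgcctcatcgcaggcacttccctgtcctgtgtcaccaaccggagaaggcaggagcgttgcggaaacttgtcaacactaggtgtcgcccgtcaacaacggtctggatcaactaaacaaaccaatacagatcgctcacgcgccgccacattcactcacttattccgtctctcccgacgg
Its Rpb2 level was 56.0 CPM for the pool labelled WT female and 29.5 CPM for the KO female pool, against 113 CPM for the WT male pool and 123 CPM for the KO male pool. The 2 genotypes overlapped, and the library at 56.0 CPM is the one whose Y-linked reads go against its label. Between genotypes the log2 fold change was -0.18 (-1.35 to 1, adjusted p = 0.919, edgeR). H3K27ac at the same place was at 52.8 and 35.5 CPM in WT pools against 56.6 and 53.6 in KO pools. The 2 further H3K27ac peaks of *Csf2ra*, this one included, had a log2 fold change of 0.33 each (lowest adjusted p = 0.869). Without the WT female library the peaks at -16708 and -38183 bp were at 0.70 and 0.63, and without the WT male library at 0.01 and 0.06, so their size rested on 1 WT pool. Another Rpb2 peak, at the 3′ end and of the KO list alone, held 4 to 57 reads (log2 fold change 0.72, 2.03 without the library labelled WT female and 0.02 without the WT male library). Summed over its peaks, *Csf2ra* had a log2 fold change of -0.06 for Rpb2 (-0.63 to 0.52, adjusted p = 0.971) and 0.20 for H3K27ac (-0.32 to 0.71, adjusted p = 0.983), or 0.27 for H3K27ac without the WT female library and 0.13 without the WT male library.

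*Csf1*, the ligand, was marked in microglia as well. Its promoter (chr3:107760470-107760719, minus strand) holds 2 GC boxes and no GAGGAA.
Csf1: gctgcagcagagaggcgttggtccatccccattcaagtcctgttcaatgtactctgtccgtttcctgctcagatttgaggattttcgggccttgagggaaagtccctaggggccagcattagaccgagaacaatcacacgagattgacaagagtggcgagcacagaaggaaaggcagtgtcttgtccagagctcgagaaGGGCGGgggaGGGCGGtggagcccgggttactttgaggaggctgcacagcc
The Rpb2 peak 244 bp past the TSS, in the 5′ UTR (chr3:107760087-107760363), held 60.6 and 69.8 CPM in WT pools against 44.6 and 53.4 in KO pools. Both KO pools were below both WT pools, with a log2 fold change of -0.42 (-1.17 to 0.34, adjusted p = 0.652, edgeR). The H3K27ac peak over the promoter held 33.6 and 26.1 CPM in WT pools against 31.9 and 31.2 in KO pools (log2 fold change 0.09, -0.56 to 0.73, adjusted p = 1; 0.27 without the WT female library). Summed over its peaks, *Csf1* had log2 fold changes of -0.15 for Rpb2 (-0.88 to 0.58, adjusted p = 0.923) and -0.01 for H3K27ac (-0.53 to 0.51, adjusted p = 0.999; -0.05 without the WT female library).

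The lowest unadjusted p of any member belonged to the other Rpb2 peak of *Csf1*, at the gene's 3′ end 20173 bp past the TSS (chr3:107740193-107740399). It held 0 and 1 reads in the WT libraries and 39 and 19 in the KO libraries. Scaled to all reads of the libraries, KO over WT was 24.1 with an exact interval for counting error of 4.16 to 969, wide because WT had a single read. On the fitted scale its log2 fold change was 4.19 (1.03 to 7.35, unadjusted p = 0.0135, adjusted p = 0.284), and 0.54 with loess offsets. It came from the KO list alone and lies outside any H3K27ac peak, while 18 of the 20 Rpb2 members overlap one, beside 76.6% of all Rpb2 peaks. Upstream of *Csf1*, 6 further H3K27ac peaks held 0 to 324 reads, from -2.64 to 1.09 on the log2 scale (lowest adjusted p = 0.811), or -3.44 to 6.69 without the WT female library. The last of these values is for a peak with 0 reads in the WT male library, so its size depends on the prior count, and 4 of the 6 peaks came from 1 list alone.

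**Figure D3:**
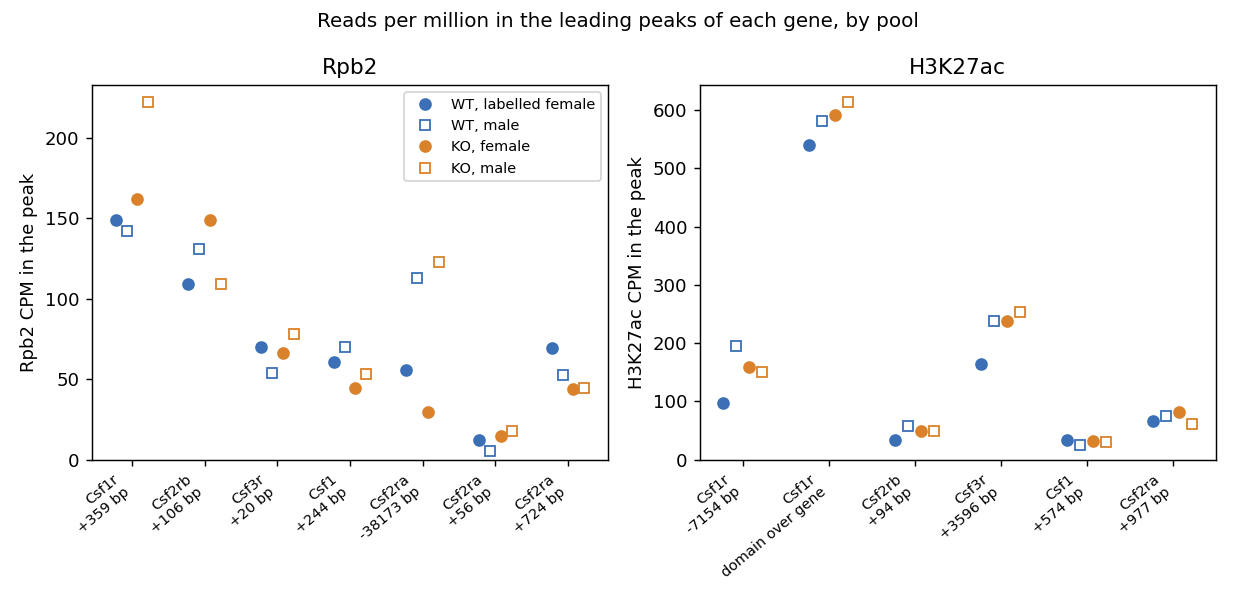
CPM in the leading peaks of each gene in the 4 pools, for Rpb2 (left) and H3K27ac (right), on linear axes from 0; labels give the distance from the TSS, filled circles are pools labelled female and open squares male. Csf1r has the highest value in each panel, and the Csf2ra peak at -38173 bp runs from 29.5 to 123 CPM over the pools; the library labelled WT female (56.0 CPM) goes against its sex label.

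Promoter levels of Rpb2 can be ordered per kb of peak. *Csf1r* came first at 537 to 836 CPM per kb over the 4 libraries, followed by *Csf2rb* at 405 to 555, and these 2 ranges overlapped. The *Csf2ra* intron 1 peak at 214 to 336, *Csf1* at 161 to 252 and *Csf3r* at 155 to 225 overlapped each other in that order but not *Csf2rb*. The TSS peak of *Csf2ra* came last at 19.2 to 65.5 CPM per kb. Over all Rpb2 peaks these 6 stood at percentiles 98.1, 95.5, 86.0, 80.7, 78.8 and 23.2 of CPM per kb. For H3K27ac the levels were closer together, at 20.2 to 22.9 CPM per kb for the *Csf1r* domain, 16.3 to 27.4 for *Csf2rb*, 17.3 to 23 for *Csf2ra*, 13.4 to 20.7 for *Csf3r* and 9.95 to 12.8 for *Csf1*.

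**Figure D4:**
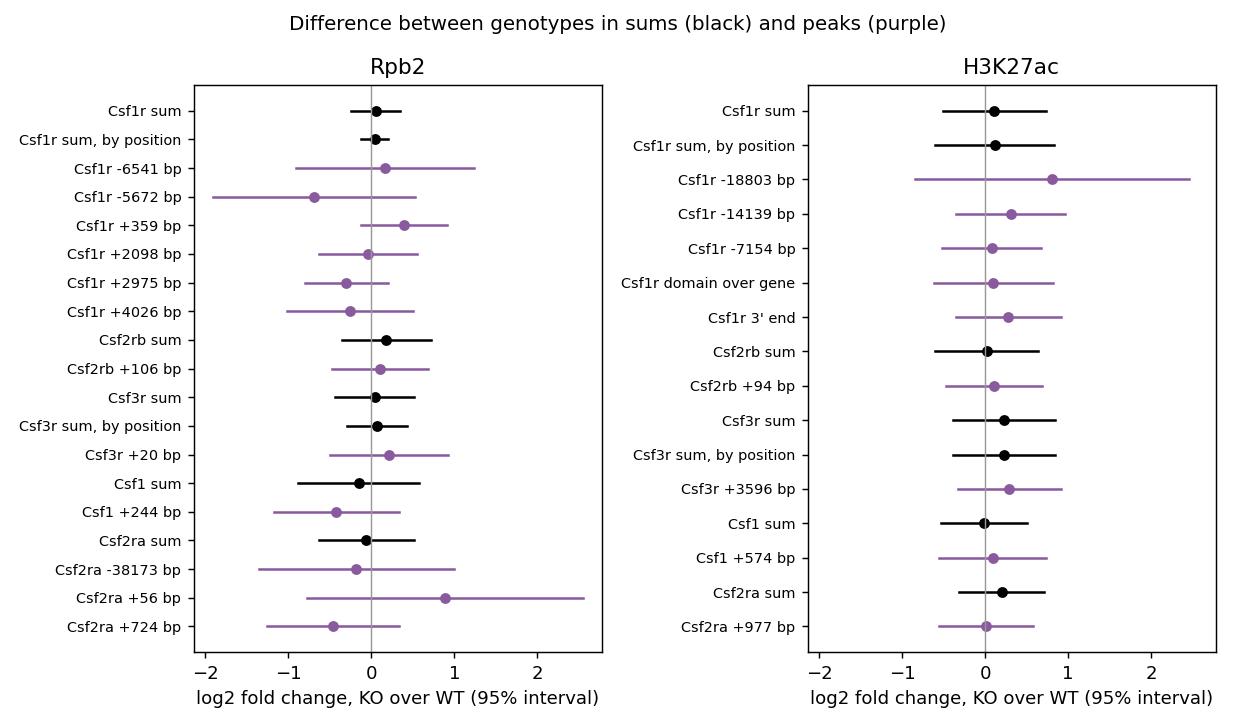
Log2 fold change, KO over WT, with 95% intervals from edgeR for the gene sums (black) and the peaks described (purple), for Rpb2 (left) and H3K27ac (right); 2 peaks with intervals wider than 4 are not drawn, the Csf1 3′ end Rpb2 peak (1.03 to 7.35, which does not cross 0) and the Csf1r H3K27ac peak at -11836 bp (-7.03 to 3.93). Every interval drawn crosses 0, and the sum of Csf1r by name or position has the narrowest (-0.12 to 0.20).

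Gene sums over all genes gave a background of 0% called for Rpb2 and 0% for H3K27ac in edgeR, with 10.8% of 10206 and 6.48% of 16938 genes at an unadjusted p under 0.05. DESeq2 called 0.274% and 1.19% of all genes, and 0 of the 5 for either mark. In edgeR 0 of the 5 genes had an unadjusted p under 0.05 for either mark. For Rpb2 the genotypes overlapped in all 5 sums, where 42.1% of genes did not, and for H3K27ac they were apart for *Csf2ra* alone, where 27.6% were.

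Other genes of the pathway were taken from a list of 44. Of these 34 had testable Rpb2 and 44 testable H3K27ac, and 0 passed the edgeR test in either direction, while 4 and 2 had an unadjusted p under 0.05. Medians were 0.02 for Rpb2 and 0.11 for H3K27ac, beside 0.02 and -0.11 over all genes. Among 3 further ligands, *Csf2*, *Csf3* and *Il34*, none had an Rpb2 peak. *Il34*, the second ligand of *Csf1r* and mainly a neuronal product, had 26 H3K27ac reads, all of them in the WT female library. *Csf2*, which encodes GM-CSF, had 1 and 0 H3K27ac reads in WT pools against 0 and 45 in KO pools. *Csf3*, which encodes G-CSF, held 25.9 and 22.9 CPM of H3K27ac in WT pools against 33.8 and 21.4 in KO pools (log2 fold change 0.18, -0.58 to 0.93; 0.27 without the WT female library). Of the receptor chains, *Il3ra* and *Il5ra* had no Rpb2 peak. *Il3ra* held 22.4 and 8.98 CPM of H3K27ac in WT pools against 16.2 and 14.8 in KO pools. Its log2 fold change was -0.01, or 0.79 without the WT female library and -0.53 without the WT male library. *Il5ra* had 32 reads, all in the WT female library. *Csf2rb2* held 30.8 and 79.6 CPM in WT pools against 57.8 and 61.6 in KO pools. Its log2 fold change was 0.10, or -0.41 without the WT female library (adjusted p = 0.346) and 0.96 without the WT male library (adjusted p = 0.00496, where 22.5% of genes were called).

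Of the transcription factors that act on *Csf1r*, *Spi1*, which encodes PU.1, held 500 and 446 CPM of Rpb2 in WT pools against 522 and 570 in KO pools. Its KO values were the higher ones, at a log2 fold change of 0.21 (-0.08 to 0.49, adjusted p = 0.612, edgeR). *Runx1* had a log2 fold change of -0.00 (-0.30 to 0.29) and *Irf8* of -0.16 (-0.39 to 0.07, adjusted p = 0.639). *Cebpa*, a factor of myeloid commitment, held 267 and 365 CPM in WT pools against 191 and 206 in KO pools. Both KO pools of *Cebpa* were below both WT pools, with a log2 fold change of -0.67 (-1.07 to -0.28, unadjusted p = 0.00183, adjusted p = 0.177), and without the library labelled WT female it was -0.90 (adjusted p = 0.00528, where 2.59% of all genes were called). Without the WT male library that of *Cebpa* was -0.43 (adjusted p = 0.41). *Stat5a*, a transducer of cytokine receptors and chosen after its values were seen, held 36.6 and 62.5 CPM of Rpb2 in WT pools against 99.3 and 129 in KO pools. Its log2 fold change was 1.19 (0.49 to 1.89, adjusted p = 0.177), which shares the lowest adjusted p of the list. Without the library labelled WT female that of *Stat5a* was 0.84 (adjusted p = 0.23), and without the WT male library 1.63 (adjusted p = 0.0162, where 1.52% of all genes were called). For H3K27ac the log2 fold changes of *Spi1*, *Runx1*, *Cebpa* and *Irf8* were 0.08, 0.13, 0.15 and 0.09. Without the WT female library they were -0.23 (adjusted p = 0.0263), -0.18 (adjusted p = 0.0479), 0.14 (adjusted p = 0.570) and -0.05 (adjusted p = 0.769), when 3.65% of all genes were called. Without the WT male library they were 0.47 (adjusted p = 1.77e-09), 0.53 (adjusted p = 8.53e-16), 0.16 (adjusted p = 0.298) and 0.25 (adjusted p = 0.00506), when 22.5% of all genes were called. The H3K27ac of *Spi1* and *Runx1* thus changed direction between these 2 fits. *Fos* and *Egr2*, named because they alone on the list had an unadjusted p under 0.05 for H3K27ac, did not. Their log2 fold changes were 0.60 (0.02 to 1.19, adjusted p = 0.738, edgeR) and 0.54 (0.03 to 1.04, adjusted p = 0.714). Without the WT female library these were 0.44 and 0.50, and without the WT male library 0.79 and 0.58. For H3K27ac *Stat5a* was at -0.05 (-1.01 to 0.90), or 0.88 and -0.63 in the same 2 fits.

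Among 9608 genes with both marks, the pattern most like that of *Csf1r* over the 8 libraries was that of *Hist1h1c*. Its distance in log2 CPM was 0.440, followed by *Arrdc3* at 0.512 and *Erp29* at 0.529, where the median gene was at 8.49. These distances use peaks named *Csf1r* only, and reflect the levels of both marks as well as their differences between libraries.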

How the data were processed

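ChIP-seq libraries for Rpb2 and H3K27ac came from sorted microglia of 2-mo-old WT and KO mice, 2 pools per genotype and mark. The authors aligned the reads to mm10 (Bowtie 2, unique alignments only), found peaks with HOMER, filtered these for reproducibility between pools and merged the lists of both genotypes. The deposited values are raw counts of reads for each library in each merged peak, with no normalization. The columns of per-sample values left unused numbered 0. Peaks without a gene name (1 for Rpb2 and 8 for H3K27ac) stayed out of the gene sums.

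Counts of all peaks, and counts summed by gene name, were tested in R 4.3.3 with the quasi-likelihood test of edgeR 4.0.16 (glmQLFit, legacy defaults, then glmQLFTest; TMM factors; genotype as the only term; Benjamini-Hochberg adjustment over the whole table). Peaks and genes needed a mean of 4 reads in a genotype. Log2 CPM used a prior count of 2, intervals used the quasi-likelihood degrees of freedom at 95%, and the threshold was an adjusted p of 0.05. The steps were run on simulated counts with less spread between pools than these data have. That run checked the steps, not how well the test finds differences here. Pools of the 2 sexes are different animals, and nothing in the labels ties same-sex pools together. The p-values are set against the spread between pools of a genotype, which includes any difference between the sexes. That spread is estimated in part from all other peaks or genes. Positions came from GENCODE and RefSeq for GRCm38. Python 3.11.15, pandas 2.3.3, NumPy 2.4.6, SciPy 1.17.1 and matplotlib 3.10.9 were used.

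All peaks of the 5 genes were counted. Those given in full were every *Csf1r* peak, every peak within 1000 bp of a TSS, the highest peak of each gene and mark, and any called. Pathway genes named were the ligands, receptor chains, *Spi1*, *Runx1*, *Cebpa*, *Irf8* and any called with all libraries. *Stat5a*, *Fos*, *Egr2*, the 3′ peak of *Csf1* and an intron 3 peak of *Csf3r* were added after their values were seen. Members, lists and tests were chosen with earlier results of these data known. Alternatives changed 1 choice at a time: scaling by total reads or loess offsets, DESeq2 1.42.0, the newer quasi-likelihood method, no filter or 10 reads in every library, peaks near a TSS or of both lists, sex as a replicate block, and each pool left out. Summing peaks by position, with all libraries or without a WT library, and the intron 2 ratio over peaks of both lists were added after seeing the data.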

Additional observations from a re-analysis of the deposited data

Results flagged for a closer look

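For 8 of the 10 gene sums the pools labelled female and male moved in opposite directions between genotypes. With 1 pool for each sex and genotype, the difference was not tested for any of them. How often all genes do so is not given here, so the 8 are not read as particular to these genes. The log2 ratio of Rpb2, KO over WT, was -0.27 in the female pools and 0.40 in the male pools for *Csf1r*, -0.53 and 0.27 for *Csf2ra*, 0.51 and -0.17 for *Csf2rb*, and -0.33 and 0.47 for *Csf3r*. The female value of each pair rests on the library labelled WT female, which held Y-linked reads. The log2 ratio of H3K27ac was 0.68 in the female pools and -0.33 in the male pools for *Csf1r*, -0.24 and 0.17 for *Csf1*, 0.63 and -0.39 for *Csf2rb*, and 0.54 and -0.02 for *Csf3r*. Here the female value rests on the library with 15.9% of its reads in peaks. *Csf1* for Rpb2 and *Csf2ra* for H3K27ac moved the same way in both pairs.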

How the results depend on the processing

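No member passed the threshold in 284 member values recomputed under alternatives that kept all libraries, of which 252 kept their direction and 32 changed it. The number of Rpb2 peaks called among all was 2, and became 15 with loess offsets, 1022 with DESeq2, 272 with the newer quasi-likelihood method, 30 with 10 reads in every library, 0 near a TSS, 8 in peaks of both lists and 4 with the replicate block; it ran from 0 to 2210 with a library left out. For H3K27ac peaks 13 became 0 with total reads of the library, 129 with DESeq2, 0 with the newer method, 1 with 10 reads in every library, 0 near a TSS and 0 in both lists, and 2 to 8157 with a library left out. Rpb2 gene sums went from 0 to 4 with loess offsets, 28 with DESeq2, 40 with the newer method, 6 with 10 reads in every library, 8 in both lists and 43 with the replicate block, and 0 to 264 with a library left out. H3K27ac gene sums went from 0 to 88 with loess offsets, 201 with DESeq2 and 140 with the replicate block, and 88 to 3807 with a library left out. The cause was not tested. Pools with the same sex label did not deviate together (correlations -0.0264 to -0.000271), and the replicate block called no member. For Rpb2 the library labelled WT female goes against its label, so neither result can speak for pools of the same sex there. Scaling to all reads of the library shifted the median of all peaks to 0.37 for Rpb2 and 0.529 for H3K27ac on the log2 scale.

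None of the changed directions below was past the threshold before or after, except where said. For Rpb2 at *Csf1r*, the peak at 2098 bp went from -0.04 to 0.02 with total reads in peaks, 0.31 with total reads of the library, 0.07 with loess offsets, 0.09 with 10 reads in every library and 0.12 in both lists, the peaks at 2975 and 4026 bp to 0.02 and 0.10 with total reads of the library, and the sum to -0.01 with loess offsets. For Rpb2 at *Csf2ra* the upstream peak became 0.25 with total reads of the library and 0.005 in both lists, and the sum 0.04 in both lists. For H3K27ac with loess offsets, the values were -0.03 at the *Csf1* promoter, 0.32, -0.05 and -0.13 at the *Csf1r* peaks at -11836 and -7154 bp and the domain, -0.13 at the *Csf2ra* promoter and -0.03 for the *Csf2rb* sum. The *Csf1r* peak at -11836 bp was 0.30 with total reads of the library and 0.72 with the replicate block, and the one at -7154 bp -0.01 with the newer method. The *Csf2ra* promoter was -0.03 with total reads in peaks, -0.05 with DESeq2, with 10 reads in every library and near a TSS, -0.002 with the newer method, -0.04 in both lists and -0.004 with the replicate block. The H3K27ac sum of *Csf2rb* was -0.004 with total reads in genes, -0.01 with DESeq2 and with 10 reads in every library, -0.08 with the newer method and -0.04 by position.

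Leaving out a library changed the direction of 19 results. For Rpb2 the ranges were -0.36 to 0.96 for *Csf1r* at -6541 bp, -0.34 to 0.31 at 2098 bp, -1.53 to 0.53 for the *Csf2ra* upstream peak and -0.14 to 0.31 for the *Csf2rb* promoter. Those of the Rpb2 sums were -0.12 to 0.24 for *Csf1r*, -0.64 to 0.37 for *Csf2ra*, -0.06 to 0.38 for *Csf2rb* and -0.24 to 0.35 for *Csf3r*. For H3K27ac they were -0.09 to 0.27 for the *Csf1* promoter, -0.26 to 1.41, -2.56 to 6.78, -0.34 to 0.67 and -0.15 to 0.61 for the *Csf1r* peaks at -18803, -11836 and -7154 bp and at the 3′ end, -0.21 to 0.21 for the *Csf2ra* promoter and -0.21 to 0.54 for the *Csf2rb* promoter. Those of the H3K27ac sums were -0.26 to 0.62 for *Csf1r*, -0.28 to 0.22 for *Csf1*, -0.41 to 0.66 for *Csf2rb* and -0.04 to 0.56 for *Csf3r*. Without the WT male library 6 member results by name passed the threshold, 5 for H3K27ac, given in the report, where 14.8% of all peaks and 22.5% of gene sums were called, and the Rpb2 peak at the 3′ end of *Csf1* (log2 fold change 7.50, adjusted p = 0.0482, edgeR), where 7.35% of all Rpb2 peaks were. With peaks also counted by position, the fits without a WT library called 264 and 155 Rpb2 gene sums and 537 and 3806 for H3K27ac. The Rpb2 sums without the WT male library were then -0.01 for *Csf1r*, 0.05 for *Csf2ra* and -0.11 for *Csf3r*. The H3K27ac sums were -0.05 and 0.31 for *Csf1r*, 0.03 for *Csf1* without the WT male library, -0.43 for *Csf2rb* without the WT female library, and -0.04 and 0.56 for *Csf3r*, whose upper value passed the threshold, as did that of *Csf1r*. The lone WT pool is then assumed to vary like the KO pools.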
